A study of Mus musculus with 12 samples.

Results

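The ubiquitin-conjugating (E2) enzyme genes are described here in mouse oocytes with mutated genes for the paired RNA-binding proteins ZAR1 and ZAR2. Members were taken by name alone, as every listed gene whose symbol begins with Ube2, which gave 35 of the 23230 genes. One of them, Ube2cbp, encodes a protein that binds UBE2C and is not an E2 enzyme. Wild-type (WT) and Zar1/2-null oocytes were compared at 3 stages, with 2 Smart-seq2 libraries of 10 pooled oocytes in each of the 6 groups, all from a C57BL6/ICR hybrid strain. Growing oocytes came from females of 13.5 days by the sample labels (12 days by the methods). GV oocytes came from females of 21 days at 44 h after PMSG. Oocytes labelled MII were ovulated ones collected from superovulated females 16 h after hCG. By the methods, superovulated females were up to 23 days old when injected with PMSG, before hCG. The labels give no age for the MII group. PMSG and hCG are gonadotropins that drive follicle growth and ovulation. The null oocytes carried small CRISPR/Cas9 deletions in both Zar1 and Zar2 in every cell of the animal, so that message could still be made from either locus, and no library lacked only 1 of the 2 genes. The label MII gives the time of collection, and the meiotic stage reached by each oocyte is not recorded in these files. By the study, ovulated Zar1/2-null oocytes had stopped in metaphase or telophase of meiosis I. Zar1/2-null MII below therefore means collected at that time, and genotype and the meiotic stage at collection cannot be told apart.

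Ubiquitin is passed from an activating enzyme (E1) to the cysteine of an E2 enzyme and from there, with the help of a ligase (E3), to a target protein. The E2 enzyme largely sets whether a single ubiquitin or a chain is built, and through which lysine of ubiquitin the chain grows. In oocytes the best known role is with the anaphase-promoting complex (APC/C), the E3 ligase that removes cyclin B and securin so that meiosis can proceed, for which UBE2C starts chains and UBE2S extends them. Transcription stops toward the end of oocyte growth, so much of the message measured at the GV stage had been stored during growth. The study still found transcription in GV oocytes whose chromatin did not yet surround the nucleolus, and their part in the GV libraries is not recorded. Many stored messages are cleared between the GV stage and ovulation.

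The feature that makes a Ube2 protein an enzyme is its active-site cysteine. In the annotated coding sequences (GENCODE on the mm9 build) a short histidine motif followed by a cysteine codon 10 or 11 residues further on was found in 24 of the 35 members and not in the other 11. Among the 11 are Ube2v1 and Ube2v2, whose proteins are known to be catalytically inactive partners of UBE2N, and Ube2cbp, but also Ube2j1, Ube2j2, Ube2o, Ube2q1, Ube2q2, Ube2ql1, Ube2u and Ube2z, so that the lack of these letters does not mark an inactive protein. Below are 30 coding bases around that codon for the 8 members on which most of the results turn, read 5′ to 3′ on the coding strand, with the cysteine codon in capitals.
Ube2c (chr2:164597462-164597491, plus strand): acccagggcaacatcTGCctggacatcctc
Ube2s (chr7:4762069-4762098, minus strand): cccaatggcgagatcTGTgtcaatgtgctc
Ube2a (chrX:34422599-34422628, plus strand): gcagatggtagtataTGTctggatatactt
Ube2b (chr11:51802168-51802197, minus strand): gctgatggtagcataTGTttagatatcctg
Ube2t (chr1:136867888-136867917, plus strand): tctagtggaaggattTGTctagatattctc
Ube2d3 (chr3:135122978-135123007, plus strand): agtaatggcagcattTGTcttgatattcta
Ube2g2 (chr10:77106219-77106248, plus strand): cctgatggcagagtcTGCatctccatcctg
Ube2m (chr7:13621563-13621592, minus strand): ctcgagggcaacgtcTGCctcaacatcctc
Each window lies within 1 coding exon. The cysteine is codon 114 in Ube2c, codon 95 in Ube2s and codon 88 in both Ube2a and Ube2b. Ube2a and Ube2b share 77.6% of their 459 coding bases, and Ube2d2 and Ube2d3 share 86.3% of 444. The 35 genes are spread over 16 chromosomes. Sequencing reads had been cut to 50 bases, so 50-base words of a transcript that also occur in another annotated gene were counted. Of the 33 members tested, 23 had none. Ube2v1 shared 81.3% of its words, mainly with the overlapping Tmem189, Ube2h shared 45.3% and Ube2d2 16.2%, both with a predicted gene. Values of these 3 genes are therefore less certain. Exons of Ube2c overlap those of Tnnc2 on the other strand and exons of Ube2g2 those of Sumo3 on the same strand. Tnnc2 stood at no more than 1.51 FPKM in any library, whereas Sumo3 reached 154 FPKM. On the other strand, exons of Nkiras1 overlap those of Ube2e1, and exons of Ydjc those of Ube2l3. Nkiras1 stood at 12.9 to 48.7 FPKM and Ydjc at no more than 4.35 FPKM over the 12 libraries. A cytoplasmic polyadenylation element (TTTTAT or TTTTAAT, sense strand) within 100 bases of a poly(A) signal (AATAAA or ATTAAA) in the last 50 bases of the annotated 3′ UTR was found in 3 of 33 members (9.09%), beside 18.5% of all 9954 kept genes with a 3′ UTR of at least 100 bases. Anywhere in the 3′ UTR, the element was found in 26 of 33 members (78.8%), beside 60.5% of those genes. The median 3′ UTR was 1304 bases long in the members and 906 bases in those genes.

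All values are FPKM, a message level per length of transcript and per sequenced library. The authors multiplied them by a factor from the spiked-in ERCC RNAs, meant to make them scale with message per 10 oocytes. The factors were 1 in both WT growing libraries and fell to 0.225 and 0.228 in WT MII and to 0.283 and 0.252 in Zar1/2-null MII oocytes. The study states different ERCC shares for the WT growing libraries. The base of a library thus seems to be the WT growing library of the same number, and replicates 1 and 2 may not share a scale. Of the targeted genes, Zar1l (Zar2) went from 639 and 644 FPKM in WT growing oocytes to 17.5 and 13.2 FPKM in Zar1/2-null. Zar1 stood at 603 and 725 FPKM in WT and, with its small deletion, at 407 and 459.9 FPKM in Zar1/2-null growing oocytes. The 10 oocyte markers summed to 2548 to 20011 FPKM per library. The 15 granulosa and cumulus markers summed to 24.8 to 30.4 FPKM in WT growing, 8.28 to 12.9 FPKM in Zar1/2-null growing and 4.32 to 16.001 FPKM in the other libraries. Of the 15, 2 were at 0 in both WT growing libraries and 3 in both Zar1/2-null growing libraries. The highest single value was 19.04 FPKM in WT growing and 7.72 FPKM in Zar1/2-null growing oocytes. The part of somatic RNA in the E2 results of growing oocytes was not tested. Whether the oocytes of a library each held less of a message or fewer of them held it cannot be told apart in pooled samples.

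In WT GV oocytes the 33 tested members had mean levels of 1.61 to 766 FPKM. Ube2d3, an E2 enzyme that works with many E3 ligases, was the most abundant member in all 12 libraries. Its WT values were 1359 and 1294 FPKM in growing, 886 and 645 FPKM in GV and 406 and 283 FPKM in MII oocytes. This 1 gene made up 26.5% to 54.1% of the summed FPKM of all members in a library. Next in the order of the WT GV means came Ube2t at 642 and 509 FPKM. Ube2w followed at 244 and 172 FPKM, then Ube2c at 173 and 155 FPKM and Ube2a at 158 and 118 FPKM. The 2 values of Ube2c overlapped those of Ube2a, and Ube2w was above Ube2c by less than the gap between its own libraries. Ube2dnl and Ube2ql1 reached at most 0.688 and 0.178 FPKM in any library and were left out of the tests. All members together held 0.410% to 0.598% of the FPKM of a library. The plot of levels by library shows 32 of the 33 tested genes.

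**Figure D1:**
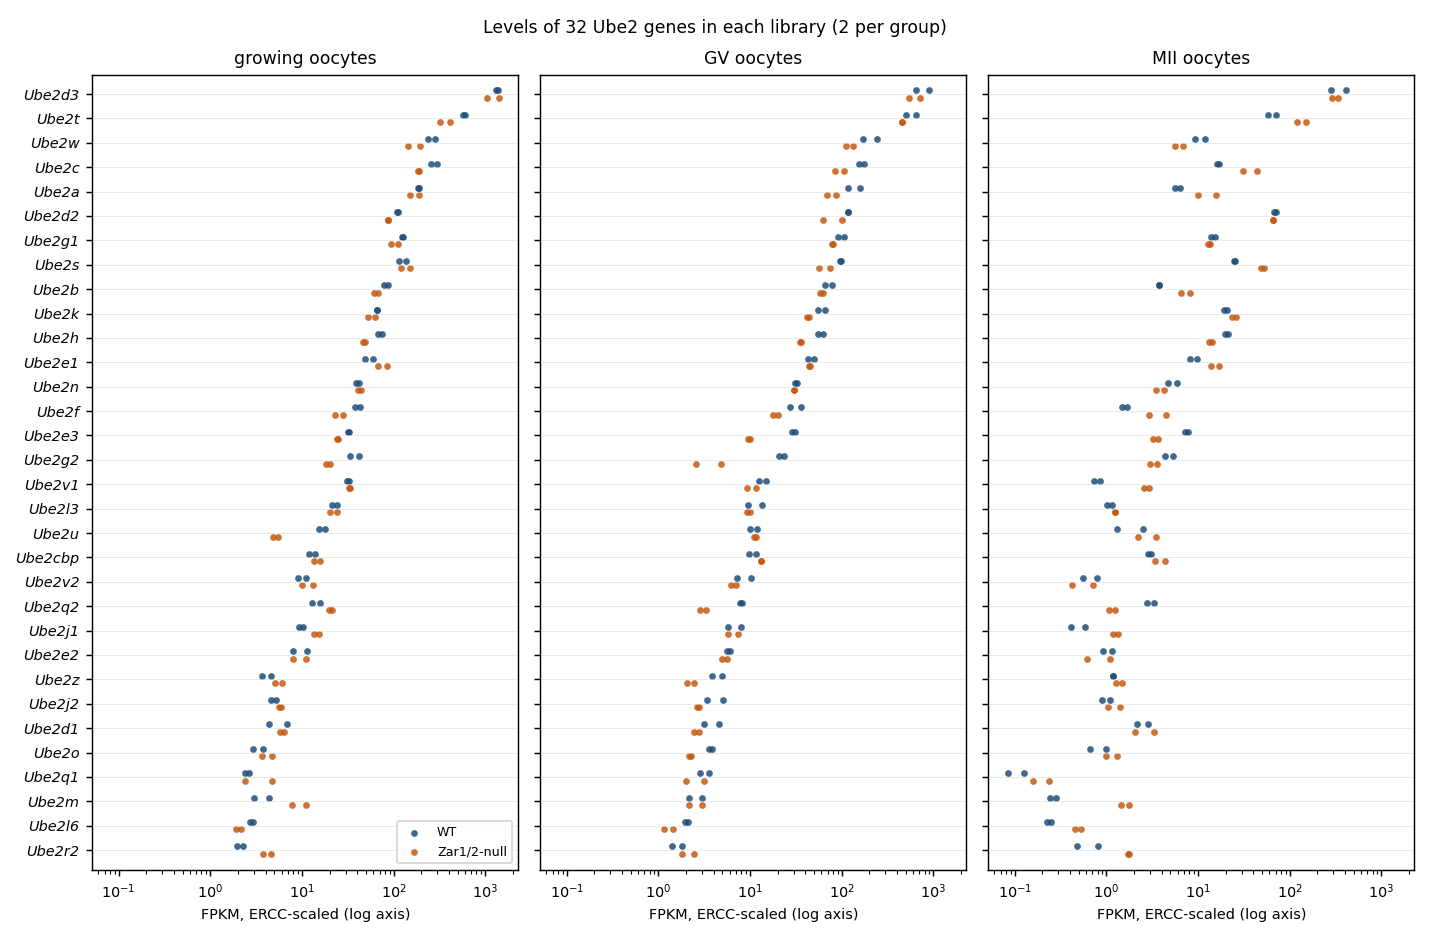
Level of 32 of the 33 tested Ube2 genes (vertical axis, ordered by the WT GV mean) in every library, as ERCC-scaled FPKM on a log axis, for growing, GV and MII oocytes. Each point is 1 library of 10 oocytes (blue WT, orange Zar1/2-null). Ube2d3 lies highest in each panel, and the MII panel spreads furthest to the left, down to a mean of 0.105 FPKM in WT.

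Growth of WT oocytes lowered some members and raised none. Differences were tested with limma on log2(FPKM + 1), a scale that understates the change of genes at a few FPKM, with Benjamini-Hochberg adjustment over all 11502 genes tested. From the growing to the GV stage, 8 of 33 members were called lower (24.2%, beside 28.7% of all genes). None was called higher, beside 2.77% of all genes. At an unadjusted p under 0.05 there was also none, a share that was not counted over all genes. The median log2 fold change was -0.34 over the members and -0.29 over all genes. The 8 were Ube2c, Ube2d3, Ube2e2, Ube2g2, Ube2l3, Ube2l6, Ube2q2 and Ube2v1. Ube2v1, a catalytically inactive partner of UBE2N, went from 30.8 and 32.9 to 15.1 and 12.4 FPKM, a log2 fold change of -1.16 ± 0.15 (SE, adjusted p = 0.000845). Ube2c went from 258 and 299 to 173 and 155 FPKM, a log2 fold change of -0.76 ± 0.18 (SE, adjusted p = 0.0125). In both genes the GV libraries lay below the growing ones. The Ube2c call was lost without WT growing replicate 2 (-0.65, adjusted p = 0.0941) or WT GV replicate 2 (-0.68, adjusted p = 0.0909). Leaving out WT growing replicate 1, WT growing replicate 2 or WT GV replicate 2 left 5, 4 or 3 lower members. How many of all genes kept their calls without these libraries was not counted. Once the ERCC factors were divided out, or libraries scaled to a common median, 2 lower members were left, Ube2l3 and Ube2v1 (6.06%, beside 3.003% and 4.50% of all genes).

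On the ERCC scale, meiotic maturation of WT oocytes lowered nearly every member, a share near that of all genes. Between the GV stage and MII, limma called 32 of 33 lower (97.0%, beside 93.4% of all genes). None was called higher, beside 0.104% of all genes. At an unadjusted p under 0.05 there was also none, a share that was not counted over all genes. The median log2 fold change was -1.90 for the members and -1.28 for all genes. The exception was Ube2d1, of the same family as Ube2d3, at 3.18 and 4.63 FPKM in GV and 2.18 and 2.82 FPKM in MII oocytes. Its log2 fold change was -0.48 ± 0.23 (SE, adjusted p = 0.0611, 95% interval -0.97 to 0.02). This direction turned with the scaling, to 0.98 (adjusted p = 0.0129) with the ERCC factors divided out and 0.82 (adjusted p = 0.00983) with libraries scaled to a common median. Among members at 10 FPKM or more in WT GV oocytes, the 4 largest falls were those of Ube2a, Ube2w, Ube2b and Ube2f. Ube2a, a RAD6 homologue, fell to 5.58 and 6.39 FPKM, or 4.34% of its GV mean (log2 fold change -4.30, SE 0.23, adjusted p = 9.83e-09). Ube2w, whose protein attaches ubiquitin to the N terminus of its targets, fell to 9.24 and 11.97 FPKM (log2 fold change -4.16, SE 0.22, adjusted p = 9.07e-09). Ube2b, the other RAD6 homologue, fell to 3.73 and 3.73 FPKM (log2 fold change -3.95, SE 0.15, adjusted p = 9.51e-10). Ube2f, a carrier of the ubiquitin-like protein NEDD8, fell to 1.68 and 1.46 FPKM (log2 fold change -3.64, SE 0.20, adjusted p = 1.29e-08). In each of these 4 genes both MII libraries lay far below both GV libraries.

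Among the smallest falls in that range were those of Ube2d2, Ube2d3 and Ube2h. Ube2d2, a close relative of Ube2d3, went from 118 and 117 to 67.7 and 70.7 FPKM (log2 fold change -0.76, SE 0.19, adjusted p = 0.00283). Ube2d3 kept 45.02% of its GV mean (log2 fold change -1.15, SE 0.24, adjusted p = 0.000717). Ube2h, the E2 enzyme of the CTLH ligase, kept 34.8% (log2 fold change -1.48, SE 0.14, adjusted p = 1.09e-06). Past a fall of 10-fold, with means under 1 FPKM set to 1, there were 7 members (21.2%, beside 15.7% of all genes): Ube2a, Ube2b, Ube2c, Ube2f, Ube2l3, Ube2v1 and Ube2w. The scaling set much of this. With the ERCC factors divided out, the median of all genes was -0.39 in place of -1.28, and the calls among members split into 18 lower and 4 higher, beside 46.1% lower and 19.2% higher of all genes. Median scaling gave 18 lower and 3 higher, beside 49.0% and 19.9%. Without the ERCC factors Ube2d2 stood at 0.98 (adjusted p = 0.00166), Ube2d3 at 0.60 (adjusted p = 0.0119) and Ube2h at 0.23 (adjusted p = 0.117). The direction of these 3 genes thus flipped with the scaling, as that of Ube2d1 did, whereas Ube2a, Ube2w, Ube2b and Ube2f were called lower under all 3 scalings.

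Growing oocytes were compared to see which members already differed between genotypes while the stored message was still being made. limma called 5 of 33 members higher in Zar1/2-null than in WT (15.2%, beside 10.6% of all genes) and 9 lower (27.3%, beside 24.4%). The 5 were Ube2e1, Ube2j1, Ube2m, Ube2q2 and Ube2r2, and the 9 were Ube2c, Ube2e3, Ube2f, Ube2g2, Ube2h, Ube2l6, Ube2t, Ube2u and Ube2w. The median log2 fold change was -0.04 over the members and -0.16 over all genes. Past 3-fold, with means under 1 FPKM set to 1, there was no member on the higher side, beside 0.982% of all genes. Without WT growing replicate 2, or without Zar1/2-null growing replicate 1, there was 1. On the lower side there was 1, Ube2u (3.03%, beside 3.54%). Leaving out WT growing replicate 1, WT growing replicate 2 or Zar1/2-null growing replicate 2 left 3, 2 or 2 higher members and 2, 2 or 2 lower ones. Ube2m on the higher side and Ube2u on the lower side kept their calls whichever library of the comparison was left out, and the other 12 did not. Shares of all genes were not counted with a library left out. The split between directions followed the scaling. It was 6 higher and 1 lower with the ERCC factors divided out, beside 14.4% and 11.7% of all genes. With median scaling it was 7 higher and 2 lower, beside 16.3% and 12.3%, while the median of all genes was 0.08 in both. All 5 higher members were called under the 3 scalings, and of the 9 lower ones Ube2u alone.

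At the GV stage every call lay on the lower side. limma called 16 of 33 members lower in Zar1/2-null oocytes (48.5%, beside 40.6% of all genes). None was called higher, beside 2.83% of all genes. At an unadjusted p under 0.05 there was also none, a share that was not counted over all genes. Among the 16 were Ube2a, Ube2c, Ube2d2, Ube2e3, Ube2f, Ube2g2, Ube2h, Ube2j2, Ube2k, Ube2l6, Ube2o, Ube2q2, Ube2s, Ube2w and Ube2z. The median log2 fold change was -0.38 over the members and -0.38 over all genes, the same at 2 decimals. Past 3-fold there were 2 members on the lower side, Ube2g2 and Ube2e3 (6.06%, beside 4.20%), and none on the higher side (beside 0.461%). Relative to the other genes of the same library, few members stood apart. With the ERCC factors divided out limma called 3 lower and 1 higher, beside 13.1% and 7.26% of all genes (median of all genes -0.03). With median scaling it called 3 lower and 4 higher, beside 12.04% and 10.98%. Ube2e3, Ube2g2 and Ube2q2, alone of the 16, were called lower under all 3 scalings. How many of all genes kept their calls in the fits that follow was not counted. Leaving out WT GV replicate 1 or Zar1/2-null GV replicate 1 left 6 or 8 of the 16 ERCC-scaled calls, and a fit to the 4 GV libraries alone gave 7. In all, 6 genes (Ube2c, Ube2e3, Ube2g2, Ube2h, Ube2q2 and Ube2z) kept their calls whichever library was left out. Without WT GV replicate 1 the list past 3-fold held 1 member.

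In ovulated oocytes most called members were higher in Zar1/2-null. limma called 12 of 33 higher (36.4%, beside 21.5% of all genes) and 4 lower (12.1%, beside 10.3%). The median log2 fold change was 0.24 over the members and 0.06 over all genes. Among the 12 were Ube2a, Ube2b, Ube2c, Ube2e1, Ube2f, Ube2j1, Ube2m, Ube2r2, Ube2s, Ube2t and Ube2v1, and the 4 were Ube2e3, Ube2h, Ube2q2 and Ube2w. All 16 were called in the same direction under all 3 scalings. The counts with the ERCC factors divided out were 12 higher and 7 lower, beside 23.9% and 22.7% of all genes. With median scaling they were 13 higher and 6 lower, beside 27.5% and 20.6%. Of the higher members, Ube2a, Ube2c, Ube2f and Ube2s had been lower at the GV stage. For the fold rule, means under 1 FPKM were again set to 1. By that rule no member passed 3-fold in either direction, beside 7.49% of all genes on the higher and 1.32% on the lower side. The result depended on this floor, since the WT means of Ube2m and Ube2v1 lay under it. A floor of 0.1 FPKM let these 2 members pass on the higher side, and shares of all genes were not counted there. Without Zar1/2-null MII replicate 1 the higher count of limma calls was 7. Without WT MII replicate 2, or without Zar1/2-null MII replicate 2, the lower count was 2. Shares of all genes were not counted without these libraries. The messages that mark the oocyte itself moved too: 10 such markers summed to 2907 and 2548 FPKM in WT and 7098 and 5999.8 FPKM in Zar1/2-null MII oocytes. Their part in the E2 results was not tested. The plot of differences sets the 3 stages side by side.

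**Figure D2:**
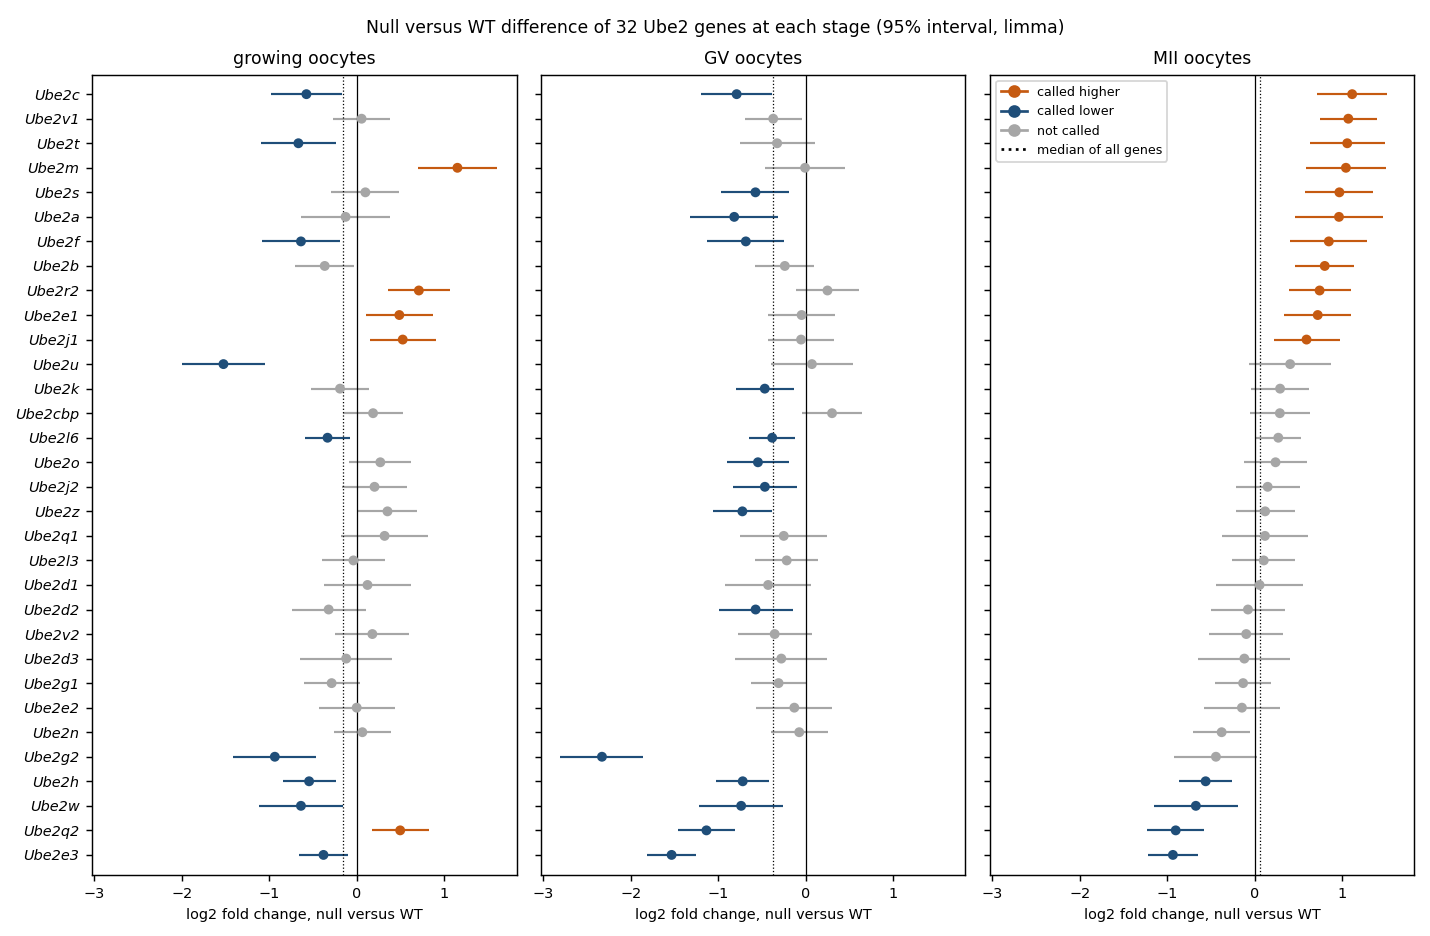
Zar1/2-null versus WT log2 fold change of log2(FPKM + 1) for 32 of the 33 tested Ube2 genes (vertical axis, ordered by the MII value) in growing, GV and MII oocytes. Points are limma estimates with 95% intervals (orange called higher, blue called lower, grey not called), the solid line is 0 and the dotted line the median of all 11502 genes. In GV oocytes the called points all lie to the left of 0, and in MII oocytes all but 4 of them lie to the right.

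The fall from GV to MII was smaller in Zar1/2-null oocytes for many members. There limma called 27 of 33 lower at MII (81.8%, beside 68.7% of all genes). None was called higher, beside 0.209% of all genes. At an unadjusted p under 0.05 there was also none, a share that was not counted over all genes. The median log2 fold change was -1.34 over the members and -0.72 over all genes. With the ERCC factors divided out the split was 18 lower and 6 higher, beside 39.3% and 18.8% of all genes. Median scaling gave the same counts, beside 42.6% and 20.2%. Past 10-fold there was 1 member, Ube2w (3.03%, beside 6.66% of all genes). The genotype difference of the fall was itself tested, as an interaction. limma called it for 16 of 33 members in the direction of a smaller fall in Zar1/2-null (48.5%, beside 33.9% of all genes). In the other direction it was called for none, beside 0.643% of all genes. At an unadjusted p under 0.05 there was also none, a share that was not counted over all genes. Its median was 0.62 over the members and 0.48 over all genes. The 6 largest were those of Ube2c, Ube2g2, Ube2a, Ube2s, Ube2f and Ube2v1. Dividing out the ERCC factors left 8 called toward a smaller fall in Zar1/2-null and 3 toward a larger one, beside 14.3% and 6.17% of all genes, and with median scaling 7 and 2, beside 15.5% and 6.56%. Those 6 genes and Ube2m were called under all 3 scalings. As a level, the MII mean was a median of 17.7% of the GV mean in WT and 35.5% in Zar1/2-null over the members, beside 18.3% and 35.3% over all genes. It was the larger share in Zar1/2-null for 29 of the 33 members, beside 83.7% of all genes.

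**Figure D3:**
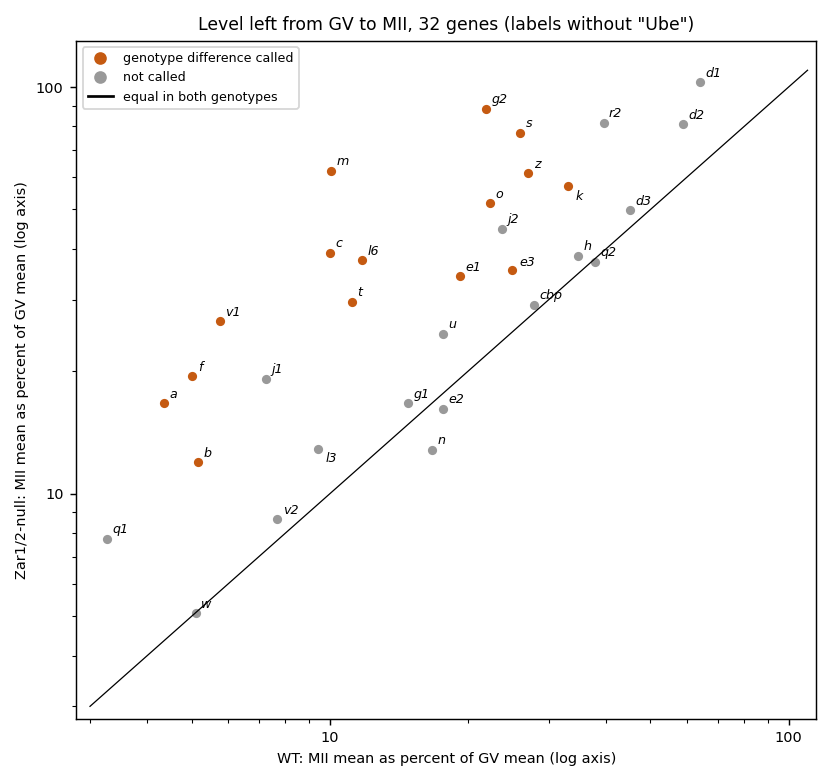
MII mean as a percentage of the GV mean in WT (horizontal) and Zar1/2-null oocytes (vertical), both on log axes, for 32 of the 33 tested Ube2 genes, with the line of equal values. Orange marks the genes whose genotype difference of the GV to MII change was called by limma. Nearly all points lie above the line, with Ube2m, Ube2v1, Ube2g2 and Ube2c among those far above it.

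Both E2 enzymes of the APC/C were called lower than WT at the GV stage and higher than WT at MII. Ube2c, which starts ubiquitin chains on APC/C targets, stood in growing oocytes at 258 and 299 FPKM in WT and 187 and 185 FPKM in Zar1/2-null. The log2 fold change there was -0.58 ± 0.18 (SE, adjusted p = 0.0307). In GV oocytes Ube2c was at 173 and 155 FPKM in WT and 84.9 and 105 FPKM in Zar1/2-null, a log2 fold change of -0.79 ± 0.18 (SE, adjusted p = 0.00569). At MII the values were 16.8 and 15.9 FPKM in WT and 43.4 and 30.9 FPKM in Zar1/2-null, and the log2 fold change was 1.11 ± 0.18 (SE, adjusted p = 0.00067). The genotypes did not overlap at any stage, with Zar1/2-null below WT before maturation and above it afterwards. Ube2c kept 9.99% of its GV mean at MII in WT and 39.2% in Zar1/2-null. The log2 difference between these falls was 1.90 ± 0.26 (SE, adjusted p = 0.000248). The growing call was lost without any 1 of the 4 libraries, in fits that set 1 library against 2. Its value kept its direction there. It was -0.68 without WT growing replicate 1 and -0.47 without WT growing replicate 2. It was -0.58 without Zar1/2-null growing replicate 1 and -0.57 without Zar1/2-null growing replicate 2. With the ERCC scaling undone, Ube2c stood at -0.34 (adjusted p = 0.122) in GV and at 0.91 (adjusted p = 0.0003) in MII oocytes, so its call was lost at the GV stage and kept at MII.

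Ube2s, which extends the chains that UBE2C starts, showed in growing oocytes 114 and 137 FPKM in WT and 119.6 and 150.3 FPKM in Zar1/2-null. These values overlapped, and the log2 fold change was 0.10 ± 0.18 (SE, adjusted p = 0.702, 95% interval -0.29 to 0.49). In GV oocytes Ube2s was at 94.8 and 98.6 FPKM in WT and 56.5 and 73.8 FPKM in Zar1/2-null, a log2 fold change of -0.57 ± 0.18 (SE, adjusted p = 0.0223). This call was lost without WT GV replicate 1 (-0.60, adjusted p = 0.0755), WT GV replicate 2 (-0.55, adjusted p = 0.0769) or Zar1/2-null GV replicate 1 (-0.38, adjusted p = 0.143), and with the ERCC factors divided out it was -0.13 (adjusted p = 0.672). At MII the values were 24.8 and 25.5 FPKM in WT and 52.4 and 48.05 FPKM in Zar1/2-null, with a log2 fold change of 0.97 ± 0.18 (SE, adjusted p = 0.00134). From GV to MII Ube2s changed by log2 -1.90 ± 0.18 (SE, adjusted p = 1.09e-06) in WT. In Zar1/2-null the log2 fold change was -0.36 ± 0.18 (SE, adjusted p = 0.0927), and the difference between genotypes was 1.54 ± 0.25 (SE, adjusted p = 0.000828). With the ERCC scaling undone, the change was -0.19 (adjusted p = 0.376) in WT and 0.69 (adjusted p = 0.00592) in Zar1/2-null, so the direction in Zar1/2-null depended on the scaling. The plot of 6 genes by stage shows Ube2c and Ube2s beside 4 other members.

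**Figure D4:**
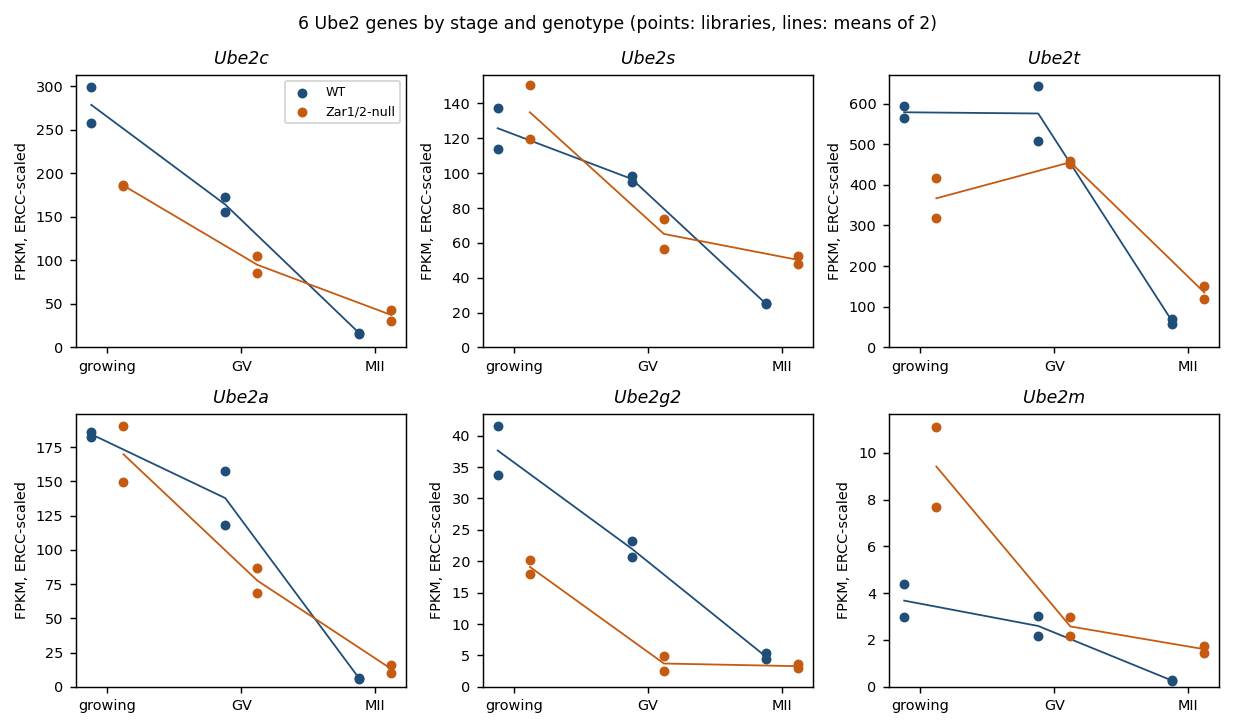
Level of Ube2c, Ube2s, Ube2t, Ube2a, Ube2g2 and Ube2m (ERCC-scaled FPKM, each axis from 0) by stage. Points are single libraries of 10 oocytes and lines join the means of 2 libraries (blue WT, orange Zar1/2-null). In the MII column the Zar1/2-null points lie above WT in each panel but that of Ube2g2, whose genotypes lie furthest apart at the GV stage.

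Both RAD6 homologues, Ube2a and Ube2b, were higher in Zar1/2-null MII oocytes. Their proteins add ubiquitin to a core histone and to the replication clamp PCNA. Ube2a was in growing oocytes at 186 and 183 FPKM in WT and 190.2 and 149.6 FPKM in Zar1/2-null, where the genotypes overlapped (log2 fold change -0.13, SE 0.23, adjusted p = 0.696). In GV oocytes Ube2a stood at 158 and 118 FPKM in WT and 68.4 and 86.6 FPKM in Zar1/2-null (log2 fold change -0.82, SE 0.23, adjusted p = 0.0146). At MII it stood at 5.58 and 6.39 FPKM in WT and 15.9 and 9.98 FPKM in Zar1/2-null (log2 fold change 0.96, SE 0.23, adjusted p = 0.00719). The genotypes of Ube2a were thus apart in opposite directions at GV and at MII. The GV call was lost without WT GV replicate 1 (-0.61, adjusted p = 0.132) or Zar1/2-null GV replicate 1 (-0.65, adjusted p = 0.0981). The MII call was lost without WT MII replicate 1 (0.88, adjusted p = 0.0565) or Zar1/2-null MII replicate 1 (0.65, adjusted p = 0.0794). With the ERCC factors divided out the GV value of Ube2a was -0.37 (adjusted p = 0.151). Ube2b was not called at the GV stage, at 78.2 and 66.3 FPKM in WT and 58.5 and 63.3 FPKM in Zar1/2-null (log2 fold change -0.24, SE 0.15, adjusted p = 0.224). At MII Ube2b stood at 3.73 and 3.73 FPKM in WT and 8.08 and 6.48 FPKM in Zar1/2-null (log2 fold change 0.80, SE 0.15, adjusted p = 0.00194). The difference between genotypes in the GV to MII change was 1.78 ± 0.32 (SE, adjusted p = 0.00177) for Ube2a and 1.04 ± 0.22 (SE, adjusted p = 0.00415) for Ube2b.

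UBE2N builds ubiquitin chains that signal rather than degrade, together with UBE2V1 or UBE2V2, and on the ERCC scale Ube2v1 alone of these 3 genes was called at MII. Its values were 0.727 and 0.853 FPKM in WT and 2.93 and 2.60 FPKM in Zar1/2-null, a log2 fold change of 1.07 ± 0.15 (SE, adjusted p = 0.000195). Every Zar1/2-null value lay above every WT value. Ube2n stood at 4.72 and 5.91 FPKM in WT and 3.44 and 4.28 FPKM in Zar1/2-null, a log2 fold change of -0.38 ± 0.15 (SE, adjusted p = 0.0761). Ube2v2 stood at 0.786 and 0.561 FPKM in WT and 0.712 and 0.425 FPKM in Zar1/2-null, a log2 fold change of -0.10 ± 0.19 (SE, adjusted p = 0.793). Ube2n was called lower at MII under both other scalings, at -0.66 (adjusted p = 0.00699) with the ERCC factors divided out and -0.53 (adjusted p = 0.00874) with median scaling. On the ERCC scale none of the 3 was called between genotypes in growing or GV oocytes, and with median scaling Ube2n was called higher at the GV stage, at 0.45 (adjusted p = 0.0393). The genotype difference of the GV to MII change was 1.44 ± 0.21 (SE, adjusted p = 0.000407) for Ube2v1, -0.30 ± 0.21 (SE, adjusted p = 0.273) for Ube2n and 0.26 ± 0.27 (SE, adjusted p = 0.471) for Ube2v2. This difference was, with the ERCC factors divided out, -1.03 (adjusted p = 0.00937) for Ube2n and -0.41 (adjusted p = 0.374) for Ube2v2, and with median scaling -0.99 (adjusted p = 0.00427) and -0.34 (adjusted p = 0.4), so that Ube2n was called toward a larger fall in Zar1/2-null and Ube2v2 turned its direction without a call. Tmem189, whose exons Ube2v1 shares, was at 0.0585 and 0.174 FPKM in WT and 0.340 and 0.443 FPKM in Zar1/2-null MII oocytes. Reads of the shared exons cannot be assigned to either gene with certainty.

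Among the E2 enzymes that serve many E3 ligases, Ube2d3 was called between genotypes at no stage. In growing oocytes it stood at 1359 and 1294 FPKM in WT and 1408 and 1054 FPKM in Zar1/2-null (log2 fold change -0.12, SE 0.24, 95% interval -0.65 to 0.40, adjusted p = 0.725). In GV oocytes it stood at 886 and 645 FPKM in WT and 537 and 722 FPKM in Zar1/2-null (log2 fold change -0.28, SE 0.24, 95% interval -0.81 to 0.25, adjusted p = 0.357). MII values were 406 and 283 FPKM in WT and 337 and 289 FPKM in Zar1/2-null (log2 fold change -0.12, SE 0.24, 95% interval -0.64 to 0.41, adjusted p = 0.798). The libraries of the genotypes overlapped at each stage. Ube2e3, of a related family, was lower in Zar1/2-null at all 3 stages. In growing oocytes Ube2e3 was at 31.3 and 32.7 FPKM in WT and 24.9 and 23.8 FPKM in Zar1/2-null (log2 fold change -0.38, SE 0.13, adjusted p = 0.0389). In GV oocytes Ube2e3 was at 31.1 and 28.6 FPKM in WT and 9.86 and 9.44 FPKM in Zar1/2-null (log2 fold change -1.53, SE 0.13, adjusted p = 1.66e-05). At MII Ube2e3 was at 7.76 and 7.16 FPKM in WT and 3.24 and 3.61 FPKM in Zar1/2-null (log2 fold change -0.93, SE 0.13, adjusted p = 0.000177). Its genotypes did not overlap at any stage, and the GV and MII calls held under all 3 scalings and without each library. The growing call was lost without WT growing replicate 1 (-0.41, adjusted p = 0.102), WT growing replicate 2 (-0.35, adjusted p = 0.147), Zar1/2-null growing replicate 1 (-0.41, adjusted p = 0.0801) or Zar1/2-null growing replicate 2 (-0.35, adjusted p = 0.159). Ube2e1, of the same family, went the other way at MII, with 9.69 and 8.16 FPKM in WT and 16.7 and 13.99 FPKM in Zar1/2-null (log2 fold change 0.72, SE 0.17, adjusted p = 0.00751). That call was lost without WT MII replicate 2 (0.61, adjusted p = 0.0649) or Zar1/2-null MII replicate 1 (0.60, adjusted p = 0.0698). Ube2e2 was called between genotypes at no stage.

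Ube2w, the third most abundant member in WT GV oocytes, was lower in Zar1/2-null at all 3 stages. Growing oocytes had 281 and 238 FPKM in WT and 192 and 143 FPKM in Zar1/2-null (log2 fold change -0.64, SE 0.22, adjusted p = 0.0422). GV oocytes had 244 and 172 FPKM in WT and 113 and 133 FPKM in Zar1/2-null (log2 fold change -0.74, SE 0.22, adjusted p = 0.0191). MII oocytes had 9.24 and 11.97 FPKM in WT and 6.85 and 5.66 FPKM in Zar1/2-null (log2 fold change -0.67, SE 0.22, adjusted p = 0.0364). The genotypes of Ube2w did not overlap at any stage. Under both other scalings its growing and GV calls were lost, and its MII call was kept. With the ERCC factors divided out it stood at -0.35 (adjusted p = 0.13) in growing and -0.29 (adjusted p = 0.244) in GV oocytes. Median scaling gave -0.35 (adjusted p = 0.158) and -0.19 (adjusted p = 0.463). Each call was lost in some fits with a library left out, which set 1 library against 2, but the direction stayed. The growing call was lost without WT growing replicate 1 (-0.52, adjusted p = 0.216), WT growing replicate 2 (-0.76, adjusted p = 0.0773) or Zar1/2-null growing replicate 2 (-0.43, adjusted p = 0.283). The GV call of Ube2w was lost without WT GV replicate 1 (-0.49, adjusted p = 0.172) or Zar1/2-null GV replicate 1 (-0.62, adjusted p = 0.105). The MII call was lost without WT MII replicate 2 (-0.50, adjusted p = 0.226), Zar1/2-null MII replicate 1 (-0.79, adjusted p = 0.0645) or Zar1/2-null MII replicate 2 (-0.55, adjusted p = 0.189). The GV to MII change of Ube2w was not called between genotypes, at 0.07 ± 0.31 (SE, adjusted p = 0.884, 95% interval -0.62 to 0.75). It turned to -0.68 (adjusted p = 0.0573) with the ERCC factors divided out and -0.64 (adjusted p = 0.0885) with median scaling. At MII 5.10% of its GV mean was left in WT and 5.09% in Zar1/2-null.

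Ube2g2, Ube2j1 and Ube2j2 are E2 enzymes known for degradation at the endoplasmic reticulum, and of all members Ube2g2 showed the lowest Zar1/2-null level against WT, at the GV stage. Growing oocytes had 33.7 and 41.5 FPKM in WT and 18.03 and 20.2 FPKM in Zar1/2-null (log2 fold change -0.94, SE 0.22, adjusted p = 0.00644). GV oocytes had 23.3 and 20.7 FPKM in WT and 2.58 and 4.83 FPKM in Zar1/2-null (log2 fold change -2.33, SE 0.22, adjusted p = 2.89e-05), a mean 5.94-fold lower in Zar1/2-null. MII oocytes had 4.35 and 5.30 FPKM in WT and 3.005 and 3.55 FPKM in Zar1/2-null (log2 fold change -0.44, SE 0.22, 95% interval -0.92 to 0.03, adjusted p = 0.15). Under both other scalings this MII difference was called lower, at -0.75 (adjusted p = 0.0188) with the ERCC factors divided out and -0.61 (adjusted p = 0.0289) with median scaling. On the ERCC scale the WT level of Ube2g2 thus came down during maturation to near the level that Zar1/2-null oocytes already had at the GV stage. In Zar1/2-null the log2 fold change from GV to MII was -0.10 ± 0.22 (SE, adjusted p = 0.703), and the difference between genotypes was 1.89 ± 0.30 (SE, adjusted p = 0.000819). The maturation values depended on the scaling. The GV to MII change of Ube2g2 was, with the ERCC factors divided out, -0.42 (adjusted p = 0.124) in WT and 0.85 (adjusted p = 0.00784) in Zar1/2-null, and with median scaling -0.46 (adjusted p = 0.0646) and 0.73 (adjusted p = 0.00874). The GV call held without each library and under all 3 scalings, while the growing call was lost without WT growing replicate 2 (-0.79, adjusted p = 0.0594). Sumo3, whose exons overlap those of Ube2g2 in part, was at 116 and 88.3 FPKM in WT and 68.2 and 107 FPKM in Zar1/2-null GV oocytes, where its genotypes overlapped. Ube2j1, a membrane-anchored enzyme, was higher in Zar1/2-null at the first and the last stage. In growing oocytes it was at 10.1 and 9.17 FPKM in WT and 13.4 and 15.3 FPKM in Zar1/2-null (log2 fold change 0.52, SE 0.17, adjusted p = 0.0345). At MII it was at 0.409 and 0.590 FPKM in WT and 1.34 and 1.18 FPKM in Zar1/2-null (log2 fold change 0.59, SE 0.17, adjusted p = 0.0207). Both Ube2j1 calls were lost in fits with a library left out, which set 1 library against 2, but the direction stayed. The growing call of Ube2j1 was lost without WT growing replicate 1 (0.59, adjusted p = 0.0823), WT growing replicate 2 (0.46, adjusted p = 0.159), Zar1/2-null growing replicate 1 (0.62, adjusted p = 0.0529) or Zar1/2-null growing replicate 2 (0.43, adjusted p = 0.19), and its MII call without WT MII replicate 1 (0.51, adjusted p = 0.131), Zar1/2-null MII replicate 1 (0.54, adjusted p = 0.121) or Zar1/2-null MII replicate 2 (0.65, adjusted p = 0.0625). Ube2j2 was called at the GV stage alone, at 5.05 and 3.35 FPKM in WT and 2.76 and 2.66 FPKM in Zar1/2-null (log2 fold change -0.47, SE 0.17, adjusted p = 0.0414), a call lost without WT GV replicate 1 (-0.23, adjusted p = 0.325), Zar1/2-null GV replicate 1 (-0.49, adjusted p = 0.0992) or Zar1/2-null GV replicate 2 (-0.45, adjusted p = 0.115).

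Among the 12 higher calls at MII were those of both NEDD8 carriers, Ube2m and Ube2f. Ube2m, the main E2 enzyme for NEDD8, which activates cullin ligases, was low in WT at every stage. Growing oocytes had 2.98 and 4.38 FPKM in WT and 7.71 and 11.1 FPKM in Zar1/2-null (log2 fold change 1.15, SE 0.21, adjusted p = 0.0016). GV oocytes had 3.02 and 2.18 FPKM in WT and 2.99 and 2.17 FPKM in Zar1/2-null (log2 fold change -0.01, SE 0.21, adjusted p = 0.981). MII oocytes had 0.244 and 0.279 FPKM in WT and 1.451 and 1.76 FPKM in Zar1/2-null (log2 fold change 1.04, SE 0.21, adjusted p = 0.00237). Zar1/2-null libraries of Ube2m were above WT before and after the GV stage and overlapped with WT at the GV stage. Ube2f, the other NEDD8 carrier, went from lower to higher. In growing oocytes Ube2f was at 42.4 and 37.6 FPKM in WT and 28.2 and 22.6 FPKM in Zar1/2-null (log2 fold change -0.64, SE 0.20, adjusted p = 0.0288). In GV oocytes Ube2f was at 35.7 and 27.02 FPKM in WT and 17.7 and 20.3 FPKM in Zar1/2-null (log2 fold change -0.68, SE 0.20, adjusted p = 0.0178). At MII Ube2f was at 1.68 and 1.46 FPKM in WT and 4.50 and 2.89 FPKM in Zar1/2-null (log2 fold change 0.85, SE 0.20, adjusted p = 0.00696). Its genotypes did not overlap at any stage. Under both other scalings the growing and GV calls of Ube2f were lost, and its MII call was kept. With the ERCC factors divided out it stood at -0.36 (adjusted p = 0.135) in growing and -0.25 (adjusted p = 0.33) in GV oocytes. Median scaling gave -0.35 (adjusted p = 0.17) and -0.16 (adjusted p = 0.575). The growing call of Ube2f was lost without WT growing replicate 1 (-0.55, adjusted p = 0.155), WT growing replicate 2 (-0.72, adjusted p = 0.0686) or Zar1/2-null growing replicate 2 (-0.49, adjusted p = 0.198). The GV call of Ube2f was lost without WT GV replicate 1 (-0.49, adjusted p = 0.154) or Zar1/2-null GV replicate 1 (-0.59, adjusted p = 0.0934), and the MII call without WT MII replicate 2 (0.79, adjusted p = 0.0516) or Zar1/2-null MII replicate 1 (0.60, adjusted p = 0.0821).

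Ube2l6, the carrier of ISG15, reached at most 2.93 FPKM in any library. Ube2z, which takes ubiquitin from UBA6, was lower than WT at the GV stage, with 3.86 and 4.88 FPKM in WT and 2.43 and 2.05 FPKM in Zar1/2-null (log2 fold change -0.72, SE 0.15, adjusted p = 0.00345). It was not called at the other stages on the ERCC scale. The GV call was lost with the ERCC factors divided out (-0.42, adjusted p = 0.216) and with median scaling (-0.29, adjusted p = 0.247). With median scaling Ube2z was called higher in growing oocytes, at 0.52 (adjusted p = 0.0424).

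Ube2t adds ubiquitin to a Fanconi anaemia protein in the repair of DNA crosslinks, and its message was the second most abundant of the members in WT GV oocytes. In growing oocytes Ube2t was at 593 and 564 FPKM in WT and 416 and 317 FPKM in Zar1/2-null (log2 fold change -0.67, SE 0.19, adjusted p = 0.0207). GV oocytes had 642 and 509 FPKM in WT and 451 and 459.8 FPKM in Zar1/2-null (log2 fold change -0.33, SE 0.19, adjusted p = 0.189). At MII Ube2t was at 70.6 and 57.8 FPKM in WT and 151 and 119 FPKM in Zar1/2-null (log2 fold change 1.06, SE 0.19, adjusted p = 0.00139). It was thus lower in growing and higher in MII Zar1/2-null oocytes. Its growing call was lost under both other scalings. The growing value was -0.38 (adjusted p = 0.0644) with the ERCC factors divided out and -0.38 (adjusted p = 0.12) with median scaling. Its GV value was 0.13 (adjusted p = 0.58) with the ERCC factors divided out and 0.22 (adjusted p = 0.384) with median scaling. The growing call was lost without WT growing replicate 1 (-0.63, adjusted p = 0.107), WT growing replicate 2 (-0.70, adjusted p = 0.0732) or Zar1/2-null growing replicate 2 (-0.47, adjusted p = 0.173), while the MII call held without each library. Between GV and MII, Ube2t kept 11.2% of its mean in WT and 29.6% in Zar1/2-null, and the difference between genotypes was 1.39 ± 0.27 (SE, adjusted p = 0.00301).

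Ube2q2 went the opposite way. In growing oocytes it was at 15.9 and 12.8 FPKM in WT and 19.6 and 21.4 FPKM in Zar1/2-null (log2 fold change 0.50, SE 0.15, adjusted p = 0.023). GV values of Ube2q2 were 7.76 and 8.24 FPKM in WT and 3.34 and 2.86 FPKM in Zar1/2-null (log2 fold change -1.14, SE 0.15, adjusted p = 0.000208). MII values of Ube2q2 were 3.30 and 2.77 FPKM in WT and 1.24 and 1.07 FPKM in Zar1/2-null (log2 fold change -0.90, SE 0.15, adjusted p = 0.000629). It was higher in growing and lower in GV and MII Zar1/2-null oocytes, with no overlap of the genotypes. The growing call of Ube2q2 was lost without WT growing replicate 2 (0.35, adjusted p = 0.17) or Zar1/2-null growing replicate 2 (0.43, adjusted p = 0.131). Ube2u had the largest difference of all members in growing oocytes, at 17.9 and 15.4 FPKM in WT and 5.48 and 4.78 FPKM in Zar1/2-null (log2 fold change -1.53, SE 0.21, adjusted p = 0.000368). In GV oocytes the genotypes of Ube2u overlapped, at 11.8 and 9.99 FPKM in WT and 11.7 and 11.2 FPKM in Zar1/2-null (log2 fold change 0.07, SE 0.21, 95% interval -0.40 to 0.54, adjusted p = 0.805).

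Ube2h was lower in Zar1/2-null at all 3 stages, as Ube2e3 and Ube2w were. Growing oocytes had 73.7 and 66.8 FPKM in WT and 48.8 and 46.8 FPKM in Zar1/2-null (log2 fold change -0.55, SE 0.14, adjusted p = 0.0103). GV values of Ube2h were 62.9 and 55.1 FPKM in WT and 35.7 and 35.03 FPKM in Zar1/2-null (log2 fold change -0.72, SE 0.14, adjusted p = 0.0019). MII values of Ube2h were 19.6 and 21.5 FPKM in WT and 14.1 and 13.1 FPKM in Zar1/2-null (log2 fold change -0.56, SE 0.14, adjusted p = 0.0086). The genotypes did not overlap at any stage. Under both other scalings the growing and GV calls of Ube2h were lost, and its MII call was kept. With the ERCC factors divided out it stood at -0.26 (adjusted p = 0.137) in growing and -0.28 (adjusted p = 0.138) in GV oocytes. Median scaling gave -0.26 (adjusted p = 0.123) and -0.18 (adjusted p = 0.294). The growing call of Ube2h was lost without WT growing replicate 1 (-0.48, adjusted p = 0.0763) or Zar1/2-null growing replicate 2 (-0.52, adjusted p = 0.0623). Its MII call was lost without WT MII replicate 2 (-0.50, adjusted p = 0.0588) or Zar1/2-null MII replicate 2 (-0.51, adjusted p = 0.0582). Ube2r2, a partner of cullin ligases, was low in WT and higher in Zar1/2-null growing oocytes, at 2.29 and 1.97 FPKM in WT and 3.71 and 4.54 FPKM in Zar1/2-null (log2 fold change 0.71, SE 0.16, adjusted p = 0.00608). At MII Ube2r2 was at 0.472 and 0.803 FPKM in WT and 1.70 and 1.75 FPKM in Zar1/2-null (log2 fold change 0.74, SE 0.16, adjusted p = 0.00417). The growing call of Ube2r2 was lost without Zar1/2-null growing replicate 2 (0.59, adjusted p = 0.0547), and its MII call without WT MII replicate 1 (0.60, adjusted p = 0.0514). Ube2d2, Ube2k, Ube2l6 and Ube2o were, like Ube2g2, Ube2j2 and Ube2z, called lower at the GV stage and not called at MII. At no stage were 9 members called between genotypes: Ube2cbp, Ube2d1, Ube2d3, Ube2e2, Ube2g1, Ube2l3, Ube2n, Ube2q1 and Ube2v2.

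The genes around the E2 enzymes are given for Zar1/2-null against WT MII oocytes, as counts of limma calls to be read beside the 21.5% higher and 10.3% lower of all genes. Of 9 APC/C genes and regulators, 4 were higher and none lower. Fzr1, an APC/C activator of prophase-arrested oocytes, stood at 0.694 and 1.17 FPKM in WT and 8.43 and 9.77 FPKM in Zar1/2-null, a log2 fold change of 2.39 ± 0.20 (SE, adjusted p = 3.25e-06). Anapc11, the RING subunit that meets the E2 enzyme, stood at 1.449 and 1.94 FPKM in WT and 11.3 and 12.2 FPKM in Zar1/2-null, a log2 fold change of 2.25 ± 0.15 (SE, adjusted p = 4.53e-07). Cdc20, the activator at the onset of anaphase, stood at 28.5 and 31.7 FPKM in WT and 65.4 and 60.8 FPKM in Zar1/2-null, a log2 fold change of 1.05 ± 0.23 (SE, adjusted p = 0.00493). In all 3 the Zar1/2-null libraries lay above WT, as they did for Ube2c and Ube2s. Of 10 genes for ubiquitin and ubiquitin-like proteins, 6 were higher and 2 lower. Nedd8 stood at 19.9 and 19.2 FPKM in WT and 199.6 and 175 FPKM in Zar1/2-null, a log2 fold change of 3.19 ± 0.15 (SE, adjusted p = 3.00e-08). Sumo3 stood at 4.32 and 3.95 FPKM in WT and 46.1 and 39.8 FPKM in Zar1/2-null, a log2 fold change of 3.09 ± 0.21 (SE, adjusted p = 5.92e-07). Each of these log2 fold changes was larger than that of any Ube2 member at MII.

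Of 9 neddylation partners, 3 were higher and 2 lower at MII. The cullin RING subunits Rnf7 and Rbx1 were both among the higher ones. Rnf7 stood at 1.30 and 1.19 FPKM in WT and 13.6 and 11.04 FPKM in Zar1/2-null, a log2 fold change of 2.56 ± 0.16 (SE, adjusted p = 3.11e-07). Rbx1 stood at 63.7 and 52.01 FPKM in WT and 123 and 96.00 FPKM in Zar1/2-null, a log2 fold change of 0.91 ± 0.19 (SE, adjusted p = 0.00288). Cops5, a subunit that removes NEDD8 from cullins, stood at 4.44 and 3.46 FPKM in WT and 15.7 and 11.5 FPKM in Zar1/2-null, a log2 fold change of 1.55 ± 0.21 (SE, adjusted p = 0.00015). Of 8 E2 and E2-like genes without the Ube2 symbol, 2 were higher and none lower. Tsg101, an inactive E2 variant of endosomal sorting, stood at 15.9 and 17.3 FPKM in WT and 63.9 and 60.1 FPKM in Zar1/2-null, a log2 fold change of 1.84 ± 0.16 (SE, adjusted p = 4.32e-06). Atg10, an enzyme of autophagy, stood at 2.06 and 2.63 FPKM in WT and 6.23 and 3.95 FPKM in Zar1/2-null, a log2 fold change of 0.84 ± 0.25 (SE, adjusted p = 0.022). None of the 8 tested E1 genes was higher, and 1 was lower. That was Sae1, a subunit of the SUMO E1 enzyme, at 1.23 and 1.32 FPKM in WT and 0.534 and 0.630 FPKM in Zar1/2-null, a log2 fold change of -0.53 ± 0.16 (SE, adjusted p = 0.0232).

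The E3 partners of the RAD6-type enzymes and of UBE2N gave calls on the lower side alone at MII. Of 6 E3 partners of RAD6-type enzymes, none was higher and 1 was lower, the histone ligase Rnf20 at 11.1 and 11.7 FPKM in WT and 6.77 and 6.78 FPKM in Zar1/2-null, a log2 fold change of -0.68 ± 0.13 (SE, adjusted p = 0.00154). Of 6 E3 partners of UBE2N, none was higher and 2 were lower. These were the DNA damage ligases Rnf168, at 6.79 and 8.26 FPKM in WT and 3.90 and 3.46 FPKM in Zar1/2-null, a log2 fold change of -0.86 ± 0.16 (SE, adjusted p = 0.00124), and Shprh, at 4.10 and 4.83 FPKM in WT and 2.02 and 2.30 FPKM in Zar1/2-null, a log2 fold change of -0.79 ± 0.18 (SE, adjusted p = 0.00588). Rnf20 was thus called in the opposite direction to Ube2a and Ube2b. Of 9 SUMO ligases and proteases, 1 was higher and 1 lower. Pias4 stood at 4.50 and 6.80 FPKM in WT and 11.7 and 11.2 FPKM in Zar1/2-null, a log2 fold change of 0.93 ± 0.21 (SE, adjusted p = 0.00513), and Senp1 at 8.47 and 12.03 FPKM in WT and 4.45 and 5.15 FPKM in Zar1/2-null, a log2 fold change of -0.94 ± 0.16 (SE, adjusted p = 0.000889). Of 9 partners in degradation at the endoplasmic reticulum, 2 were higher and 2 lower. Rnf139 stood at 8.59 and 8.29 FPKM in WT and 3.84 and 4.21 FPKM in Zar1/2-null, a log2 fold change of -0.91 ± 0.15 (SE, adjusted p = 0.00064), and March6 at 15.4 and 16.6 FPKM in WT and 8.46 and 8.65 FPKM in Zar1/2-null, a log2 fold change of -0.83 ± 0.14 (SE, adjusted p = 0.000889). Aup1, which recruits UBE2G2, stood at 0.301 and 0.570 FPKM in WT and 1.17 and 1.40 FPKM in Zar1/2-null, a log2 fold change of 0.67 ± 0.23 (SE, adjusted p = 0.0429). In GV oocytes the same 9 lists gave 0 or 1 higher call each and 2 to 6 lower calls each, to be read beside 2.83% higher and 40.6% lower of all genes at that stage. The 19 genes named from these lists were each called in the same direction under all 3 scalings at MII. Without each MII library in turn 14 of them kept their calls, and Atg10, Aup1, Pias4, Sae1 and Shprh did not.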

How the data were processed

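Messenger RNA of 12 Smart-seq2 libraries of 10 oocytes, 2 in each of 6 groups, was measured. Per the submitters' processing notes and methods, reads were cut to 50 bases, mapped to mm9 with TopHat2 2.1.1 and assigned to gene models with Cufflinks 2.2.1. The authors gave these as FPKM values and multiplied each library by a factor from its share of ERCC reads, with WT growing oocytes as the base. By the factors, this base seems to be the WT growing library of the same replicate number. The study states read totals per library, which were not used here. The deposited table holds no counts per gene, so the depth behind a single value, its counting error and a floor cannot be given, and an exact 0 may be an estimate that failed.

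Of 23230 genes, the 11502 that reached 1 FPKM in any library were kept. log2(FPKM + 1) was fitted with limma 3.58.1 in R 4.3.3 over all 12 libraries, with a moderated test per comparison and Benjamini-Hochberg adjustment at 0.05 over all kept genes. Fold rules (over 3-fold, and over 10-fold for maturation) used group means with values under 1 FPKM set to 1. Factors divided out in an alternative were recovered from the digits of the values. On simulated data with 200 of 11502 genes changed in the GV comparison, 70% of 2-fold and 98% of 4-fold changes were recovered, with 10 false calls each. The changed genes were drawn from those above 5 FPKM in WT GV oocytes, and noise was drawn apart for each gene. These rates therefore do not cover members at lower levels, errors shared by a library, or a comparison in which many genes differ. The labels do not say that libraries came from separate animals, so p-values measure only the spread between these libraries, and an exact permutation test of 2 against 2 cannot go below 0.333. Alternatives were 2 other scalings, another pseudocount, other filters, another floor for fold rules, a replicate block, the libraries of 1 stage alone, and leaving out each library in turn (a lone library was assumed to vary like the other groups). The share of all genes called was counted for the main fit and the 2 other scalings alone.

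The replicate numbers were checked for pairing: differences between replicates 1 and 2 correlated across genes at -0.12 to 0.16 between groups, and no label ties equal numbers together. Equal numbers seem to share an ERCC base, however, which the main fit did not model and the replicate block allowed for. Members were all genes with a symbol starting with Ube2. Named with values were Ube2c and Ube2s, up to 4 called members with the largest change per direction and stage, the 5 most abundant in WT GV oocytes, the 4 largest and 4 smallest falls at maturation (at least 10 FPKM in WT GV), the 6 largest called interactions, members of a described class, and up to 3 called genes of each pathway list at MII. Members and lists were chosen with earlier results of these data known. Values of 1 member and of 1 gene of the pathway lists are not reported here, though both stay in the counts. Gene models were GENCODE on mm9, read with Python 3.11.15. Sequences, coordinates and exon overlaps come from that annotation and not from the authors' gene models.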

Additional observations from a re-analysis of the deposited data

Results flagged for a closer look

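The genotype difference of the GV to MII change was called by the interaction term of limma for 16 members, each with the smaller fall in Zar1/2-null oocytes. In log2 units the difference (Zar1/2-null minus WT) was 1.90 for Ube2c, 1.89 for Ube2g2, 1.78 for Ube2a, 1.54 for Ube2s, 1.53 for Ube2f, 1.44 for Ube2v1 and 1.39 for Ube2t. It was 1.05 for Ube2m and 1.04 for Ube2b. A further 6 lay lower, at 0.84 for Ube2z, 0.79 for Ube2o, 0.77 for Ube2e1, 0.76 for Ube2k, 0.65 for Ube2l6 and 0.60 for Ube2e3. The calls of Ube2a, Ube2b, Ube2c, Ube2f, Ube2g2, Ube2s, Ube2t and Ube2v1 held whichever GV or MII library was left out. The difference of Ube2e3 turned to -0.17 with the ERCC factors divided out and to -0.14 with median scaling. Beside these, 33.9% of all genes tested were called in the same direction.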

How the results depend on the processing

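Of the alternative values for named genes, 1003 kept their direction and their side of the threshold, 162 lost the call, 11 gained it in the same direction and 52 changed direction. Of the alternative counts, 150 stayed within 1.5 times the reported one and 60 did not. Where counts or directions moved, the cause was not tested. Outside the main fit and the 2 other scalings, the share of all genes called was not counted. A loss of member calls there may be shared by other genes.

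With the ERCC factors divided out, lower calls were 1 in growing and 3 in GV oocytes and 7 at MII, and 1 member was higher at GV. WT maturation gave 4 higher and 18 lower, Zar1/2-null maturation 6 higher, WT growth 2 lower and the interaction 8 and 3. Past 3-fold there were 1 higher and 0 lower in growing, 1 lower in GV, and 1 higher and 1 lower in MII oocytes, and past 10-fold 0 in either genotype. Median scaling gave 2 and 3 lower in growing and GV oocytes, 4 higher at GV, 3 higher and 18 lower in WT maturation, 6 higher in Zar1/2-null maturation, 2 lower in WT growth and 7 and 2 for the interaction. Past 3-fold it gave 1 higher and 0 lower in growing, 1 lower in GV and 2 higher in MII oocytes, and past 10-fold 0 in either genotype. A pseudocount of 0.1 FPKM gave 2 higher and 5 lower in growing oocytes and 5 lower in WT growth. No filter gave 3 higher in growing oocytes and 1 higher and 4 lower in WT growth. A mean of at least 5 FPKM left 1 higher in growing oocytes. The 4 libraries of a stage alone gave 3 higher in growing and 7 lower in GV oocytes. A floor of 0.1 FPKM gave 2 higher past 3-fold at MII and 3 past 10-fold in Zar1/2-null.

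Leaving out each library in turn gave 3 to 7 lower in WT growth, 2 to 4 higher and 2 to 6 lower in growing oocytes, and 6 to 13 lower in GV oocytes. At MII it gave 7 to 11 higher and 2 to 4 lower. Past 3-fold it gave 1 to 2 lower in GV and 0 to 1 higher in growing oocytes.

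Direction changed as follows, in log2 units. In growing oocytes Ube2d3 and Ube2a went to 0.17 and 0.16 with the factors divided out, and to 0.17 and 0.16 with median scaling. In GV oocytes Ube2d3, Ube2t, Ube2b and Ube2m went to 0.17, 0.13, 0.21 and 0.36, and with median scaling to 0.27, 0.22, 0.30 and 0.36. In WT maturation Ube2h, Ube2d3, Ube2d2 and Ube2d1 went to 0.23, 0.60, 0.98 and 0.98, and with median scaling to 0.17, 0.54, 0.92 and 0.82. In Zar1/2-null maturation Ube2s, Ube2d3, Ube2d2 and Ube2g2 went to 0.69, 0.066, 0.79 and 0.85, and with median scaling to 0.65, 0.023, 0.75 and 0.73. The interactions of Ube2e3, Ube2v2 and Ube2w went to -0.17, -0.41 and -0.68, and with median scaling to -0.14, -0.34 and -0.64, and that of Ube2w to -0.0039 with a pseudocount of 0.1 FPKM. In WT growth Ube2s went to 0.015 with the factors divided out. Leaving out each library in turn, the growing values ranged from -0.066 to 0.26 for Ube2s, from -0.33 to 0.087 for Ube2d3 and from -0.30 to 0.043 for Ube2a. These turned without Zar1/2-null growing replicate 2, and Ube2s also without WT growing replicate 1, at -0.035. Ube2d2 in Zar1/2-null maturation ranged from -0.60 to 0.079 (turned without Zar1/2-null GV replicate 1), and Ube2d3 at MII from -0.38 to 0.14 (turned without WT MII replicate 1). Values near 0 also turned: Ube2m in GV oocytes ranged from -0.18 to 0.16 (without WT GV replicate 1 or Zar1/2-null GV replicate 2), Ube2u in GV oocytes from -0.039 to 0.18 (without WT GV replicate 2), Ube2g2 in Zar1/2-null maturation from -0.45 to 0.25 (without Zar1/2-null GV replicate 2), and Ube2v2 at MII from -0.23 to 0.036 (without WT MII replicate 1 or Zar1/2-null MII replicate 2). The interaction of Ube2w ranged from -0.19 to 0.32, turned without replicate 1 of any of the 4 groups.

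With a replicate block the counts were 5 higher and 8 lower in growing, 17 lower in GV, and 12 higher and 4 lower in MII oocytes, 33 and 27 lower in WT and Zar1/2-null maturation, 9 lower in WT growth and 16 for the interaction. Ube2l6 lost its growing call (adjusted p = 0.0509 in limma), and Ube2v2 in GV oocytes (0.0406), Ube2d1 in WT maturation (0.0239) and Ube2u in WT growth (0.0216) gained one. No label pairs libraries by number, though equal numbers seem to share an ERCC base, which this block allows for. Without counts per gene, what depth limits was not tested.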
